A study of Mus musculus with 2 samples.

Results

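The neutrophils of the neonatal mouse lung were examined in 2 droplet single-cell RNA-seq libraries, 1 of lungs kept in room air and 1 of lungs kept in hyperoxia. Both groups were wild-type C57BL/6 pups (C57BL/6J in the methods of the study), held at 21% O2 (room air) or 80% O2 (hyperoxia) from P0 to P14, the hyperoxia model of bronchopulmonary dysplasia. The lungs were harvested at P14, labelled as 2 weeks of age, and the lungs of 8 mice were pooled into each library. Nursing dams were rotated between the groups, and the lungs were perfused with PBS and digested with enzymes, with lysis of red blood cells before capture. Neutrophils were chosen by their measured transcripts: each barcode needed 500 detected genes or more and 20% mitochondrial UMIs or fewer (unique molecular identifiers, which count captured transcripts), and had to hold at least 20 UMIs of S100a8 plus S100a9 and at least 3 UMIs of Retnlg plus Csf3r plus Cxcr2. It could hold at most 1 UMI of Csf1r and none of Cd3e, Cd79a, Cdh5 or Epcam, which mark macrophages, T cells, B cells, endothelium and epithelium. This gave 88 neutrophils of 3809 kept cells in room air and 379 of 11711 in hyperoxia, 467 of 15520 in all.

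Neutrophils are short-lived granulocytes made in the bone marrow and released into the blood, from which they enter tissue within hours of injury or infection. As they develop they fill primary, specific and gelatinase granules in turn, and transcription of the granule genes largely stops before the cell leaves the marrow. In tissue they release cytokines and chemokines, produce superoxide with the NADPH oxidase and respond to interferons. In lungs exposed to high oxygen they are among the inflammatory cells that have been linked to tissue damage.

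Each group was 1 library, so mice cannot be compared and no test between the groups was possible. Values are counts per 1000000 UMIs of the summed neutrophils (CPM), and every interval is a 95% interval that covers counting error only. Exact Poisson intervals were used for levels, exact conditional intervals for ratios and Clopper-Pearson intervals for shares. The libraries held 4234 and 13223 barcodes and 39593888 and 111934936 UMIs, of which 362634 and 1230020 UMIs were in neutrophils. Neutrophils were shallower in hyperoxia, with a median of 2326 UMIs and 987 genes per cell against 3218.5 UMIs and 1218.5 genes in room air. B cells differed the same way (medians of 2997 and 4667 UMIs), while the medians over all kept cells were close (8009 and 8299 UMIs). A cell type with few cells and one with little RNA per cell cannot be told apart in a summed profile. The libraries shared 17 barcodes, of which 0 belonged to a neutrophil.

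The 20 neutrophil identity genes outside the rule, all of them measured, were far higher in the chosen cells than in the rest. Their summed level was 19824 CPM in the room air neutrophils and 21944 CPM in those of hyperoxia, against 793 and 762 CPM in the other kept cells. S100a8 and S100a9, which the rule used and whose values are therefore only a description, encode the subunits of calprotectin and together made up 7.64% of the UMIs of the median neutrophil in room air and 6.94% of those in hyperoxia (medians of 214.5 and 156 UMIs), while the median of the other kept cells was 0 in both libraries. Mpo, which encodes the myeloperoxidase of primary granules, had 0 UMIs in both libraries, and Elane, which encodes neutrophil elastase, had 0 and 1. A floor of 3 counts, chosen for ratios in which 1 library held 0 UMIs, equals 8.27 CPM in the room air and 2.44 CPM in the hyperoxia neutrophils. The earliest granule stage was thus barely represented among these transcripts. The lowest S100a8 plus S100a9 sum among the neutrophils was 29 UMIs in room air and 20 in hyperoxia, and the highest among cells that failed this limit alone was 17 and 19. The limit left out 17 and 49 cells that met every other condition, and the Cdh5 condition left out 7 and 52.

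Some barcodes that met the rule also held RNA of another cell type. In room air 4 neutrophils, and in hyperoxia 16, held at least 20 UMIs of the stromal, epithelial, endothelial, basophil and mast cell, or macrophage markers. Scgb1a1 and Ly6c2 were left out when barcodes were marked as mixed. These mixed barcodes were rich in RNA, with medians of 14426 and 12594 UMIs, and carried 17.2% of the neutrophil UMIs of each library. Most were stromal (3 and 11). Marker sums of other cells differed between the groups with them: stromal markers stood at 1812 CPM in room air against 3596 CPM in hyperoxia, epithelial markers at 1280 and 2986 CPM and basophil and mast cell markers at 419 and 5.69 CPM. Without the mixed barcodes Col1a1, which encodes a chain of collagen I, was at 63.8 CPM in hyperoxia and lower still in room air. Sftpc, which encodes the surfactant protein C of alveolar epithelium, still stood at 496 and 986 CPM. Scgb1a1, the secretoglobin of club cells, was at 932 and 1025 CPM, but its UMIs could not mark a barcode as mixed. Epx and Prg2, which define eosinophils, were at 0 in both. The part of this RNA in the levels below was not tested, and levels are given for all neutrophils first and, where they differ, for neutrophils without the mixed barcodes.

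Neutrophils were a larger share of the cells in hyperoxia. They made up 2.31% of kept cells in room air (interval 1.86 to 2.84%) and 3.24% in hyperoxia (2.92 to 3.57%), a difference of 0.93 percentage points (0.31 to 1.49). Set against monocytes, gated by Ly6c2, Ccr2 and Csf1r, the gap was wider, with 0.693 neutrophils per monocyte in room air and 2.92 in hyperoxia. The monocytes numbered 127 of 3809 kept cells in room air and 130 of 11711 in hyperoxia, so their own share was lower in hyperoxia. That ratio therefore reflects both cell types and does not measure a gain of neutrophils alone. With a minimum of 1000 detected genes in place of 500, a limit near the median neutrophil of the hyperoxia library, the order of the shares turned (2.09% in room air and 1.75% in hyperoxia). How many mice gave the neutrophils of each pool is not known from the counts.

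Neutrophils fell into cells with many and cells with few specific granule transcripts. Camp encodes the cathelicidin precursor, Ltf lactoferrin and Ngp neutrophilic granule protein, all of which are made at the myelocyte and metamyelocyte stages. Summed over the 3 genes, 80 of 88 neutrophils in room air and 313 of 379 in hyperoxia held 0 UMIs, and 3 and 29 held between 1 and 19. The remaining 5 cells in room air (5.68%, interval 1.87 to 12.8%) and 37 in hyperoxia (9.76%, 6.97 to 13.2%) held at least 20 and are called granule-high below, the others granule-low. The intervals overlapped and the difference of 4.08 percentage points had an interval of -3.53 to 9.22. Granule-high cells held between 376 and 1705 granule UMIs in room air and between 23 and 2341 in hyperoxia. They were also the deeper cells, with median depths of 13885 (room air) and 5980 UMIs (hyperoxia), against 3174 and 2261 in granule-low cells, so that few cells carried 17.9% and 21.2% of all neutrophil UMIs.

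**Figure D1:**
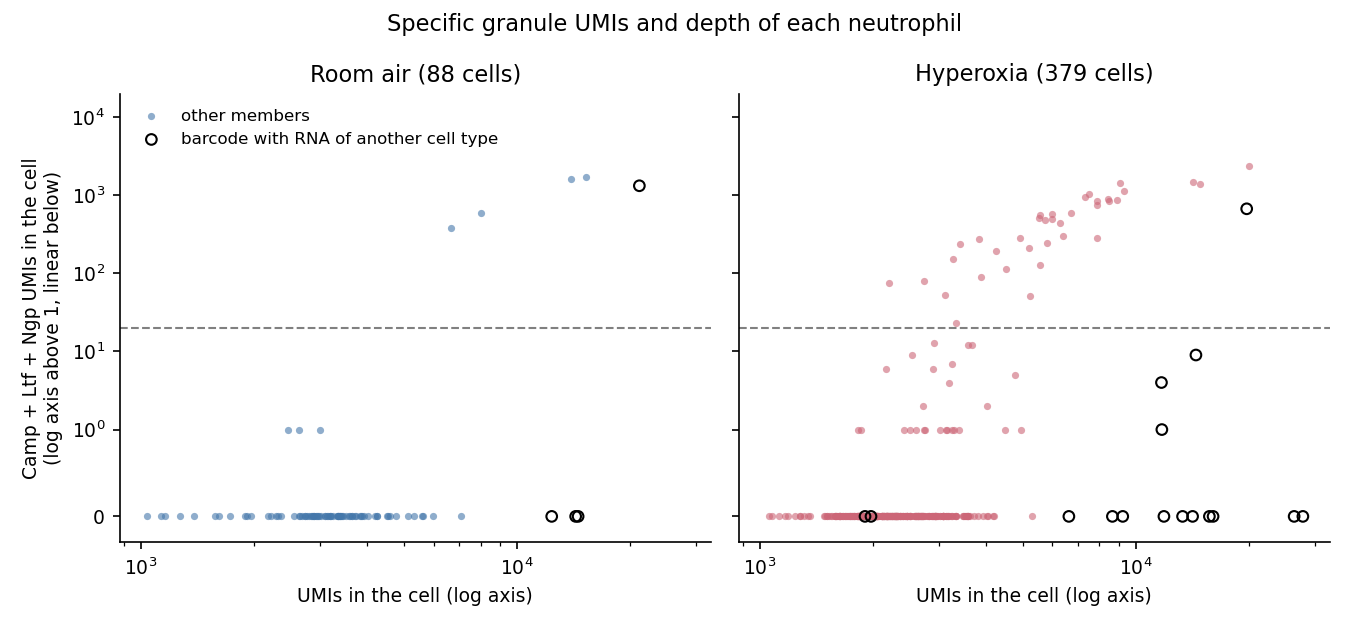
Each point is a neutrophil, with its UMIs on the x axis (log) and its UMIs of Camp, Ltf and Ngp on the y axis (log above 1, linear below), for 88 room air and 379 hyperoxia cells. The dashed line marks 20 granule UMIs and open circles mark the mixed barcodes, and 5 and 37 cells lie above the line.

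The granule-high cells differed from the others in genes that had not been used to set them apart, most of those described here in the same direction in both libraries. Hmgb2 did not keep its direction, at 1353 against 1724 CPM in room air and 2711 against 1308 CPM in hyperoxia. Retnlg, a gene of the rule, was at 6859 against 7130 CPM and 17623 against 9875 CPM. Lcn2, which encodes lipocalin 2, a siderophore-binding protein of specific granules, was at 18210 CPM in granule-high cells against 277 CPM in granule-low cells without mixed barcodes in room air, and at 14345 against 828 CPM in hyperoxia. Cybb, the membrane subunit of the NADPH oxidase, was at 1769 against 58.5 CPM and at 1883 against 82.3 CPM. Il1b, which encodes interleukin-1 beta, ran the other way, at 108 CPM in granule-high cells against 9380 CPM in granule-low cells in room air, and at 150 against 10840 CPM in hyperoxia. The chemokine gene Cxcl2 followed Il1b, with 338 against 2239 CPM and 142 against 6455 CPM. Csf3r, the receptor for granulocyte colony-stimulating factor and one of the genes that chose the cells, was at 76.9 against 2052 CPM and 196 against 1705 CPM. Cycling cells, with at least 10 UMIs of Mki67, Top2a, Birc5 and Cdk1, numbered 0 in room air and 3 in hyperoxia, and the 3 were all granule-high. In each library 1 granule-high cell was a mixed barcode.

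**Figure D2:**
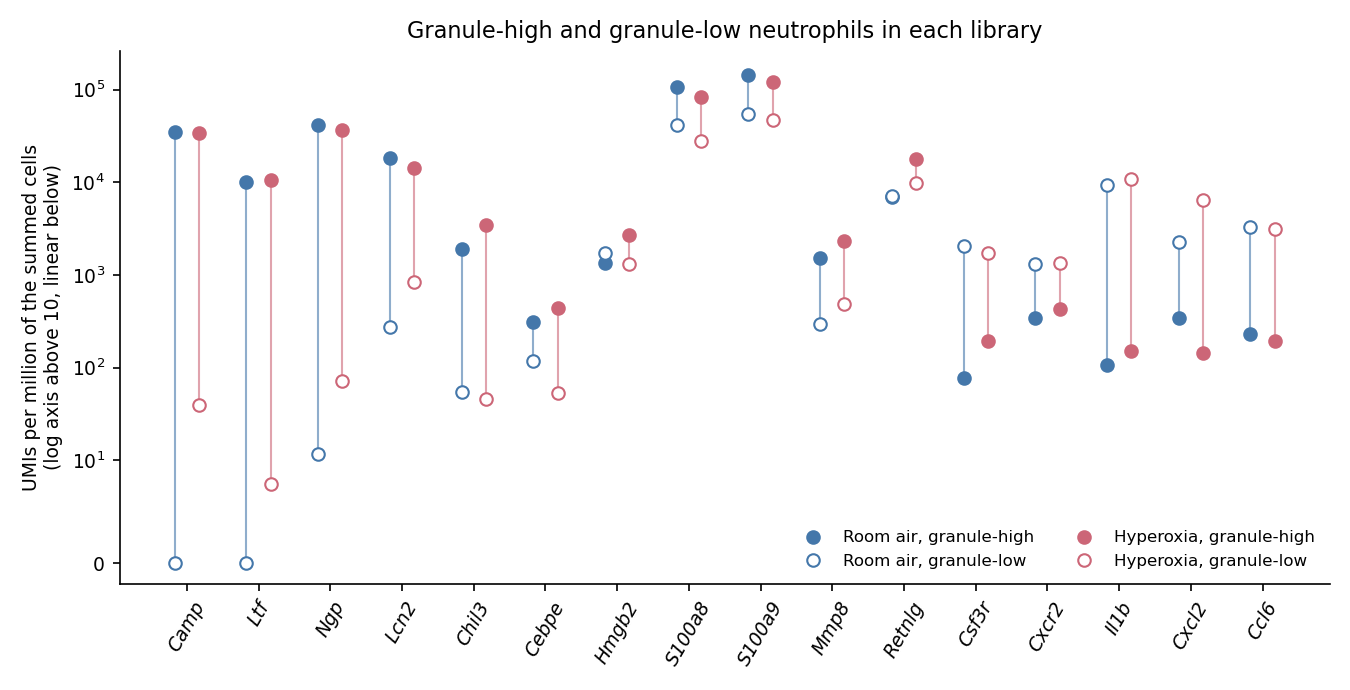
Levels in CPM (y axis, log above 10, linear below) of 16 genes in the summed granule-high cells (filled) and the summed granule-low cells without mixed barcodes (open) of room air (blue) and hyperoxia (red). Camp, Ltf, Ngp, Lcn2, Chil3, S100a8 and S100a9 lie higher in granule-high cells, and Csf3r, Cxcr2, Il1b and Cxcl2 lower, in both libraries. Hmgb2 and Retnlg lie lower in granule-high cells in room air and higher in hyperoxia. Camp, Ltf and Ngp defined the classes, so their order was fixed in advance. S100a8, S100a9, Retnlg, Csf3r and Cxcr2 were genes of the rule, and their values are only a description.

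Across single cells, S100a8 plus S100a9 ran with Retnlg and against Il1b. All 3 of these marker genes were used by the rule. Over the 84 and 363 neutrophils without the mixed barcodes, each thinned to 1000 UMIs, the rank correlation between S100a8 plus S100a9 and Il1b was -0.38 in room air and -0.43 in hyperoxia, and that between S100a8 plus S100a9 and Retnlg was 0.49 and 0.61. Il1b and Cxcl2 correlated at 0.22 and 0.38. The cells of a library share its pool and its depth, and these values are a description across cells.

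Gene groups were compared between hyperoxia and room air by the ratio of CPM in the summed neutrophils. Over the 2589 genes with a mean of at least 50 CPM, the median log2 ratio was 0.02, 2.94% were at least 2-fold higher in hyperoxia (76 genes) and 1.58% at least 2-fold lower (41 genes). Without the mixed barcodes 40 and 28 genes passed these limits. In the granule-low cells without the mixed barcodes, 2.43% of 2428 genes were at least 2-fold higher and 1.73% at least 2-fold lower. Counts of genes past 2-fold in each group below stand beside these shares. Counts of genes simply higher or lower have no such share here and stand beside the median over all genes.

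Inflammatory cytokine and chemokine genes were higher in hyperoxia. All 10 measured genes of the 15 in the list had a higher level, 2 of them at least 2-fold, and the median log2 ratio was 0.81. In the granule-low cells without mixed barcodes 5 of the 10 were at least 2-fold higher, with a median of 0.95 and 9 higher. Cxcl2, a chemokine that draws neutrophils through the receptor Cxcr2, stood at 1671 CPM (1541 to 1810) in room air against 4204 CPM (4090 to 4320) in hyperoxia, a ratio of 2.52 (2.31 to 2.74), and at a ratio of 2.88 (2.64 to 3.15) in the granule-low cells. The median neutrophil had 457 CPM of Cxcl2 in room air and 3049 CPM in hyperoxia, so the order held in the typical cell as well as in the sum. With each cell thinned to 1000 UMIs, 52.3% (41.4 to 63.0%) of neutrophils in room air and 67.8% (62.9 to 72.5%) in hyperoxia held a Cxcl2 UMI. The shares of B cells, taken as a background, were 0.541% and 1.96%. This background was not free RNA alone in hyperoxia, where a B cell barcode held 1045 UMIs of Camp, Ltf and Ngp, against at most 2 in room air. Unthinned, the shares of neutrophils were 58.0% and 76.8%.

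Other cytokine genes of the list had smaller counts. Osm, which encodes the interleukin-6 family cytokine oncostatin M, was at 314 CPM in room air against 613 CPM in hyperoxia, a ratio of 1.95 (1.6 to 2.4), and the median cell was at 0 and 424 CPM. Tnf, which encodes tumour necrosis factor, was at 80.0 and 154 CPM, a ratio of 1.92 (1.30 to 2.95). Ccl3 and Ccl4 encode chemokines for monocytes and lymphocytes. Ccl4 was at 55.2 CPM in room air against 163 CPM in hyperoxia, a ratio of 2.96 (1.87 to 4.96), and 1 hyperoxia cell held 21.9% of its UMIs. Ccl3 was at 141 and 267 CPM, but 1 room air cell held 66.7% of the room air UMIs, and in the granule-low cells without mixed barcodes the ratio was 5.98 (3.62 to 10.6). Il1b differed least of these, at 6792 CPM in room air against 7135 CPM in hyperoxia, with cell medians of 8382 and 8682 CPM. The direction of Cxcl2 held in the monocytes, where its log2 ratio was 2.37 against 1.33 in neutrophils. The higher level was not particular to neutrophils: the summed list had a log2 ratio of 0.39 there, 0.73 in monocytes and 0.65 in the other kept cells. With a minimum of 1000 detected genes the log2 ratio of Cxcl2 was 0.77, that of Il1b was -0.40, and the summed level of the list went from a log2 ratio of 0.39 to -0.01.

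**Figure D3:**
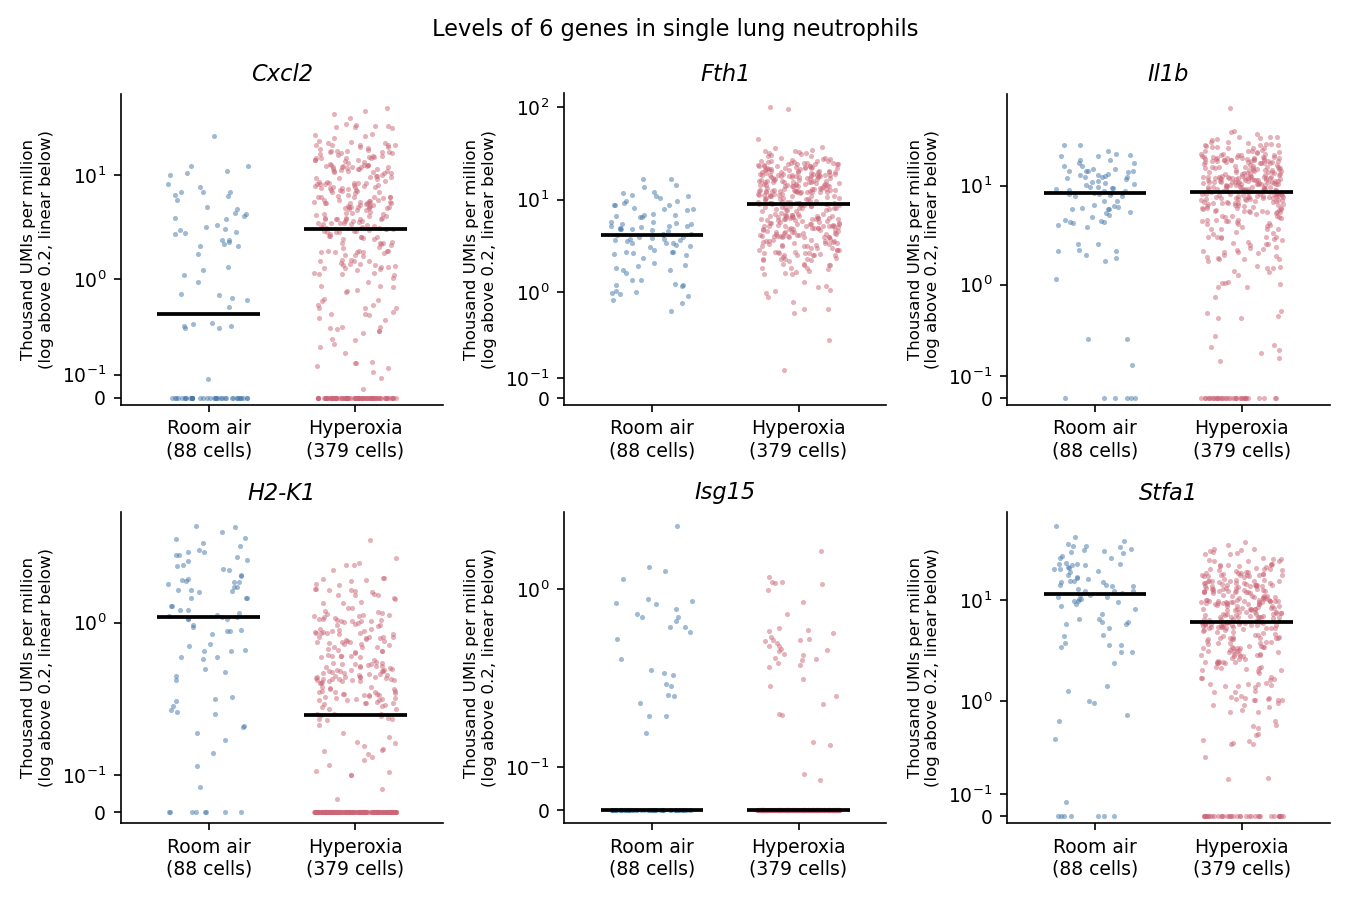
Each point is a neutrophil and its level of the gene in units of 1000 CPM (log above 0.2, linear below), and the bar is the median over 88 room air or 379 hyperoxia cells. The Cxcl2 median is 457 CPM in room air against 3049 CPM in hyperoxia and the H2-K1 median 1073 and 277 CPM, while the Il1b medians lie close together and the Isg15 medians are 0.

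Antioxidant genes were mostly higher, and 1 of them was among the most abundant transcripts of the cells. Of 20 measured genes 14 were higher and 6 lower in hyperoxia, 2 were at least 2-fold higher, and the median log2 ratio was 0.28. Fth1 encodes the heavy chain of ferritin, which stores iron in a form that cannot react with peroxide. It stood at 4451 CPM in room air against 9723 CPM in hyperoxia, a ratio of 2.19 (2.07 to 2.30), and at 4195 and 9072 CPM in the median cell. The Fth1 level was also higher in monocytes (4788 and 6034 CPM) and in the other kept cells (2613 and 4279 CPM). Hmox1, which encodes heme oxygenase 1, was at 66.2 CPM in room air against 150 CPM in hyperoxia, a ratio of 2.27 (1.48 to 3.64). Prdx1, a peroxiredoxin, was at 93.8 and 150 CPM, and Sod1, the cytosolic superoxide dismutase, at 49.6 and 87.8 CPM. Txnip, which encodes an inhibitor of thioredoxin, was lower, at 574 and 428 CPM. The genes of the NADPH oxidase, the source of superoxide in neutrophils, showed little difference, with a summed log2 ratio of -0.02 and 4 of 7 genes higher.

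Interferon-stimulated genes were mostly lower in hyperoxia. Of the 47 genes listed 46 were found and 14 measured. Of these 14, 11 were lower and 3 higher, 2 were at least 2-fold lower, and the median log2 ratio was -0.51. In the granule-low cells without mixed barcodes 11 of 17 measured genes were lower and 6 higher, with a median of -0.35. Isg15 encodes a ubiquitin-like modifier and stood at 190 CPM (148 to 241) in room air against 47.2 CPM (35.8 to 61) in hyperoxia, a ratio of 0.248 (0.172 to 0.357). After thinning, 18.2% of neutrophils in room air and 6.33% in hyperoxia held an Isg15 UMI, against 1.08% and 0.785% of B cells. The Isg15 level was lower in monocytes and in the other kept cells as well, with log2 ratios of -1.58 and -1.38. Ifi27l2a, which was not in the list and was named for its low ratio, was at 607 and 158 CPM, but its share of thinned cells (28.4 and 13.5%) was close to that in B cells (24.9 and 12.3%). Irf7, the transcription factor that amplifies the type I interferon response, was at 85.5 and 40.7 CPM. Not all genes of the group went this way: Ifitm1, which encodes an interferon-induced transmembrane protein, was at 1089 and 1156 CPM, and Rsad2, which encodes viperin and lay under the level needed for the count, at 24.8 and 43.9 CPM. The summed level of the list differed less than its median, with a log2 ratio of -0.24 (-0.31 to -0.18), and of -0.10 in the granule-low cells without mixed barcodes.

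MHC class I presentation genes, a group put together after the values were seen, were mostly lower. These genes encode the class I heavy chains, their light chain beta-2 microglobulin and the proteasome subunits and transporters that supply their peptides. Of 16 genes in the group 9 were measured, all 9 were lower and 2 at least 2-fold, with a median log2 ratio of -0.50. In the granule-low cells without mixed barcodes 10 of 11 measured genes were lower. The exception, Tap2, a subunit of the peptide transporter, was at 42.9 and 61.7 CPM in these cells, and at 38.6 and 53.7 CPM over all neutrophils, under the level needed for the count. H2-K1, a classical heavy chain, was at 1012 CPM in room air against 333 CPM in hyperoxia, a ratio of 0.329 (0.285 to 0.379), and at 1073 and 277 CPM in the median cell. H2-D1, the other classical heavy chain of this strain, was at 2245 and 1585 CPM, and B2m at 2035 and 1407 CPM. Psmb9, a subunit of the immunoproteasome, was at 154 and 62.6 CPM. The summed level of the group had a log2 ratio of -0.65 in neutrophils, -0.82 in monocytes and -0.51 in the other kept cells.

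**Figure D4:**
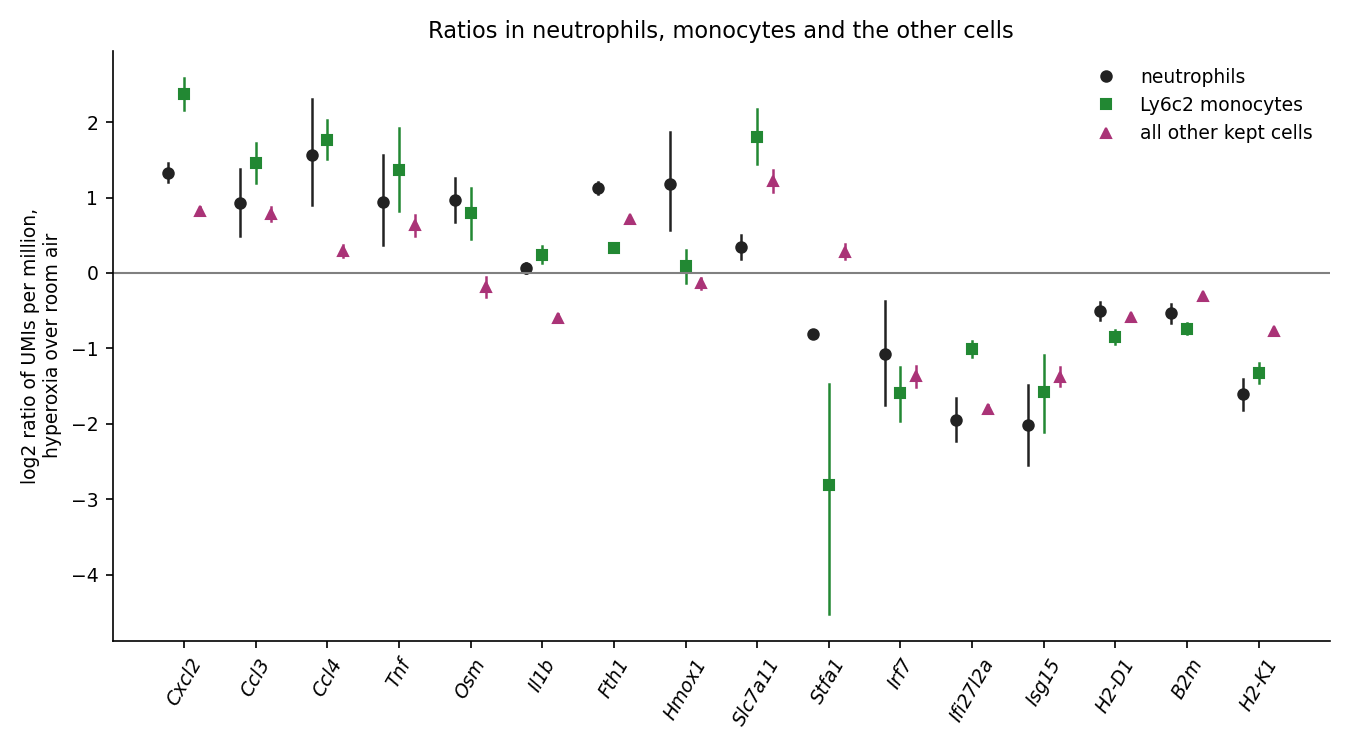
The log2 ratio of CPM, hyperoxia over room air, is plotted on the y axis for 16 genes in neutrophils (circles), Ly6c2 monocytes (squares) and all other kept cells (triangles), with 95% counting intervals as lines. Irf7, Ifi27l2a, Isg15, H2-D1, B2m and H2-K1 lie below 0 in all 3 groups of cells, while Cxcl2 lies above 0 in all 3, with a neutrophil value of 1.33.

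The promoters of 3 genes on which these groups turn are shown, from the RefSeq annotation of GRCm38.p6, as the 250 bases before the gene start, with the motif named for each in capitals. Isg15 (chr4:156200819-156201068, minus strand) holds 3 overlapping matches to the interferon-stimulated response element, searched as GAAANNGAAA on both strands, from 78 bases before the start. Cxcl2 (chr5:90903649-90903898, plus strand) and H2-K1 (chr17:34000348-34000597, minus strand) each hold 2 overlapping matches to the NF-kB motif, which together make up 1 run that begins 97 and 111 bases before the start.
Isg15: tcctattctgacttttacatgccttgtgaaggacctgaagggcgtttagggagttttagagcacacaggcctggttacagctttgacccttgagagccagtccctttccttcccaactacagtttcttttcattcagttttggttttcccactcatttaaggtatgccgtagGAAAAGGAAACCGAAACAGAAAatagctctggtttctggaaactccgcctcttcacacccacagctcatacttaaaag
Cxcl2: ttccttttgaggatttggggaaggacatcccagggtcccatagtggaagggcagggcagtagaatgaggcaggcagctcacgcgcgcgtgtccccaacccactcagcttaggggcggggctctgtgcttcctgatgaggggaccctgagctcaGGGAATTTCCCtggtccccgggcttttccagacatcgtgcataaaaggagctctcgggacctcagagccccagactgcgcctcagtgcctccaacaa
H2-K1: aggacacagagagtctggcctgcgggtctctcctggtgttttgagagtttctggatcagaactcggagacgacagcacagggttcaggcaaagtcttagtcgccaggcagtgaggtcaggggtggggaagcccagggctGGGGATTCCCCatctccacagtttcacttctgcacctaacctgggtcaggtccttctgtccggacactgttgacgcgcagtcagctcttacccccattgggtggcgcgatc
The response element was found in 20 of 39 interferon-stimulated genes with a promoter in the annotation (51.3%) and in 3.46% of all 27025 genes. Among the MHC class I genes it was found in 2 of 14, H2-T23 and B2m, and not in H2-K1 or H2-D1. The NF-kB motif was found in 5 of 12 inflammatory genes, 9 of 12 genes of the NF-kB target list and 6 of 14 MHC class I genes, against 4.46% of all genes. An antioxidant response element, searched as TGACNNNGC, was found in 8 of 22 antioxidant genes and in 11.5% of all genes. A match is a run of letters in the window and was not tested as a binding site.

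S100 and stefin genes outside the rule were lower in hyperoxia. Stefins are cysteine protease inhibitors that are abundant in mouse neutrophils. Of 9 measured genes 8 were lower and 1 higher, none at least 2-fold, and the median log2 ratio was -0.41. Stfa1 was at 12332 CPM in room air against 7029 CPM in hyperoxia, a ratio of 0.570, and at 11548 and 6107 CPM in the median cell. Stfa2l1 was at 4633 and 3044 CPM. Of the genes that chose the cells, S100a8 was at 49121 and 35998 CPM, S100a9 at 65176 and 56335 CPM, and Csf3r at 1486 and 1167 CPM, while Retnlg, which encodes a resistin-like secreted protein, was at 6367 and 10286 CPM. Cxcr2, the receptor for Cxcl2, was at 990 and 973 CPM. These 5 are given as a description, since a minimum in UMIs decided which cells were counted.

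Granule genes depended on a few cells. The summed level of the 10 measured specific granule genes had a log2 ratio of 0.13 (0.10 to 0.17), with 8 higher and 2 lower, and of 0.42 without the mixed barcodes. Camp was at 6249 CPM in room air against 7142 CPM in hyperoxia, Ngp at 7418 and 7875 CPM, and Ltf at 1790 and 2233 CPM. Chil3, which encodes a chitinase-like protein, was at 378 and 889 CPM, and without the granule-high and mixed barcodes its log2 ratio was -0.24, from 14 and 36 UMIs. Olfm4, which encodes the granule glycoprotein olfactomedin 4, was at 93.8 and 13.8 CPM, but 1 room air cell held 61.8% of the room air UMIs. In granule-low cells without mixed barcodes the genes Camp, Ngp and Ltf held 0, 3 and 0 UMIs in room air and 31, 56 and 6 in hyperoxia.

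Receptor genes were mostly higher. Of 16 measured chemotactic and cytokine receptor genes 12 were higher and 4 lower, none at least 2-fold. Their median log2 ratio was 0.17, against 0.02 over all measured genes. Il1r2, the decoy receptor that binds interleukin-1 without signaling, was at 378 CPM in room air against 700 CPM in hyperoxia, and at 284 and 602 CPM in the median cell. Ccr1, a receptor for Ccl3, was at 483 and 754 CPM. Ly6g, the surface protein used to sort mouse neutrophils, was at 188 and 189 CPM over all neutrophils and at 19.5 and 83.6 CPM in granule-low cells without mixed barcodes. Adhesion genes were divided, with 6 of 12 higher.

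**Figure D5:**
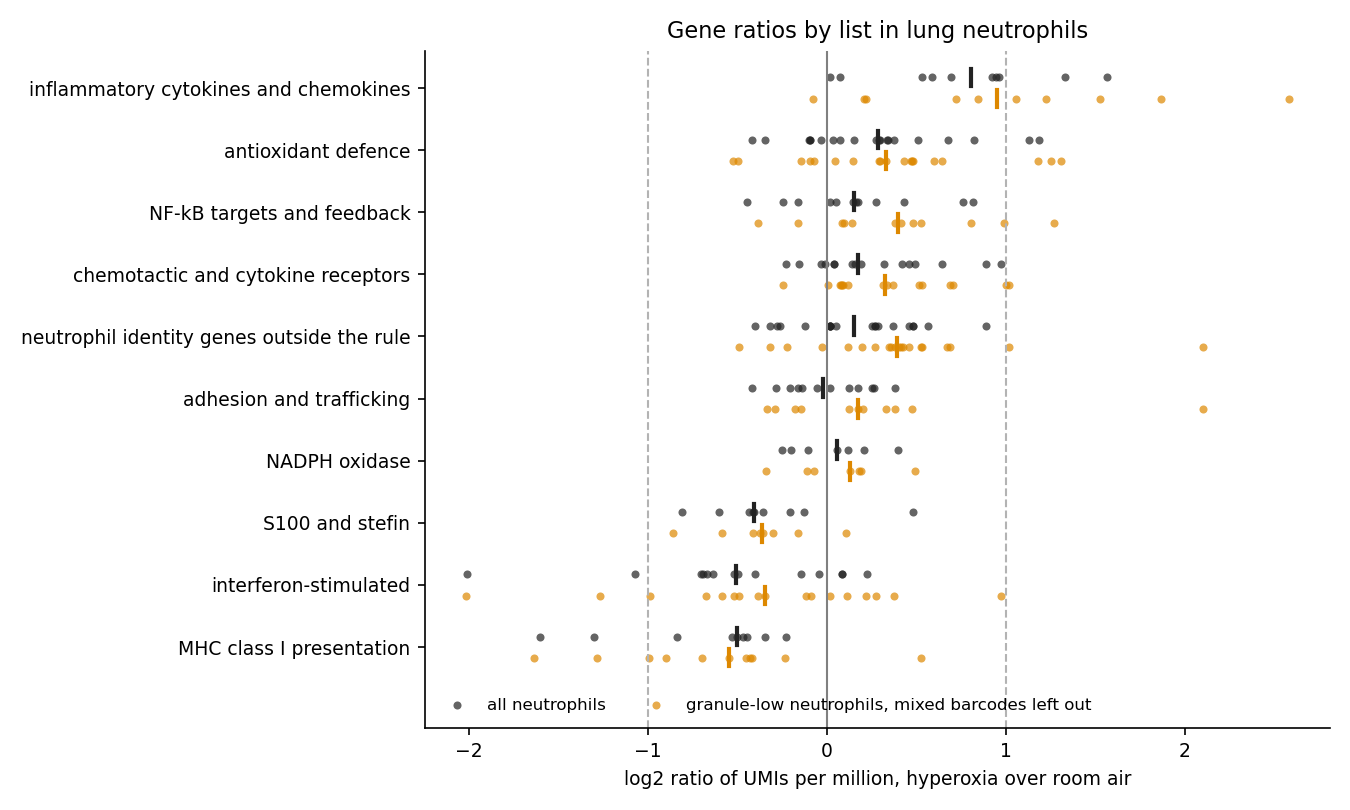
Each point is a gene with a mean of at least 50 CPM and its log2 ratio, hyperoxia over room air (x axis), grouped by list, and the bars are medians, for all neutrophils (black) and granule-low neutrophils without mixed barcodes (orange). Dashed lines mark a 2-fold difference. Inflammatory genes have the highest median (0.81 and 0.95). In all neutrophils interferon-stimulated and MHC class I genes have the lowest (-0.51 and -0.50). In the granule-low neutrophils MHC class I genes have the lowest (-0.55), followed by S100 and stefin (-0.36) and interferon-stimulated genes (-0.35).

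Outside these groups, the genes with the largest ratios were chosen by rank, among genes whose level in neutrophils was at least that of the other kept cells in the library where they were higher. Gadd45g, a stress-induced growth arrest gene, was at 66.2 CPM in room air against 230 CPM in hyperoxia. Id1, an inhibitor of basic helix-loop-helix transcription factors, was at 71.7 and 229 CPM, and Rdh12, a retinol dehydrogenase, at 68.9 and 220 CPM. Bhlhe40, a transcription factor that promotes cytokine production, was at 24.8 and 80.5 CPM. Zmpste24, the protease that processes prelamin A, had the largest ratio among them at 13.8 and 91.9 CPM, but stood at 3.90 and 11.6 CPM in the granule-low cells without mixed barcodes.

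Among the lowest ratios, several rested on single cells. Prss34 and Mcpt8, which encode proteases of basophils and mast cells, came from 1 mixed barcode of room air, which held all 302 UMIs of Prss34 and 87 of the 88 of Mcpt8. For Gm20186 and Mfap5, 1 room air cell held 53.2% and 55.7% of the UMIs. AW011738 was at 105 CPM in room air against 17.1 CPM in hyperoxia, a log2 ratio of -2.62. Its annotated position begins 2485 bases beyond the start of Isg15 on chromosome 4, and the level of Isg15 was lower in the same direction. Gm12840, a transcript without an established function, was at 113 and 36.6 CPM.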

How the data were processed

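Single-cell RNA-seq was measured in 2 libraries, 1 of room air and 1 of hyperoxia lungs, each a pool of 8 mice. The files hold UMI counts per gene and barcode as the authors deposited them, made with Cell Ranger against mm10. The version is given differently by the processing notes (2.1.1), by the extract protocol and the methods (6.1.1) and by the matrix header (3.1.0), and the kit chemistry also differs between the labels and the methods, so neither was settled here. No value was normalized by the authors in these files, and 0 columns were left without a sample.

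Barcodes were kept and neutrophils chosen as described in the report. UMIs were summed over the neutrophils of each library and divided by their total to give CPM. Genes whose mean over both libraries reached 50 CPM entered the ratios, and 2-fold marked a large difference. No test was made, since each group was 1 library. Intervals (95%) cover counting error only. Where UMIs were 0 in 1 library, a floor of 3 counts was used. No doublet caller removed cells from the main values, and a simulated-doublet filter was an alternative. B cells were gated by Cd79a and Cd79b, monocytes by Csf1r, Ly6c2 and Ccr2. For shares of cells with a UMI, cells were thinned to 1000 UMIs, which left out 0 neutrophils, and 1 and 3 B cells. The members and gene lists were chosen with earlier results of these data known. Genes were named as members of these lists, as genes of the rule, or as the 10 highest and 10 lowest ratios among genes at least as high in neutrophils as in the other cells. The mixed and granule-high classes and the MHC class I list were chosen after the values were seen. Alternatives changed the gene minimum, mitochondrial limit, marker limits, doublets, total, summing and thinning. Software was Python 3.11.15, numpy 2.4.6, scipy 1.17.1, pandas 2.3.3 and scikit-learn 1.9.0, and the statistics were tested on simulated data.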

Additional observations from a re-analysis of the deposited data

Results flagged for a closer look

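Barcodes with fewer than 500 detected genes were outside the comparison, yet 4 of them in room air and 5 in hyperoxia met every marker limit of the neutrophil rule. Droplet data lose shallow neutrophils easily, and these barcodes did not enter any value above.

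For 4 genes the ratio of hyperoxia over room air had opposite directions in neutrophils and in Ly6c2 monocytes, and the difference was not tested because each group was 1 library. S100a8 had a log2 ratio of -0.45 in neutrophils and 0.87 in monocytes, where its levels were 272 and 498 CPM. S100a9 had -0.21 in neutrophils and 1.28 in monocytes, where it was at 21.0 and 50.8 CPM. Both genes chose the neutrophils through a minimum in UMIs, so their neutrophil ratios are only a description. G0s2, which encodes an inhibitor of lipolysis, had 0.27 in neutrophils and -1.51 in monocytes. Bcl2a1b, which encodes a survival protein of the Bcl2 family, had 0.47 in neutrophils and -0.52 in monocytes. The monocytes of hyperoxia also held the basophil transcript Mcpt8 at 171 CPM, against 3.1 CPM in room air, and its part in these values was not tested.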

How the results depend on the processing

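Most values kept their direction. On the log2 scale Cxcl2 stayed between 0.77 and 1.59, Fth1 between 0.86 and 1.25, H2-K1 between -1.75 and -1.48 and Isg15 between -2.30 and -1.80 under the alternatives run. A minimum of 1000 detected genes, which left 72 and 181 neutrophils, turned the difference in neutrophil share from 0.93 to -0.35 percentage points and the summed log2 ratios of the inflammatory list to -0.014, the identity list to -0.030, the NF-kB list to -0.049 and the survival list to -0.032, with Il1b at -0.40 and Slc7a11 at -0.061. It also moved the specific granule list from 0.13 to 0.50, the interferon list from -0.24 to -0.43, the lists with a higher sum from 14 to 8 of 19, and the difference in granule-high share from 4.08 to 11.84 points. Stricter markers gave 0.47 points for the difference in neutrophil share. They gave 0.27 for the specific granule list, 0.30 for the inflammatory list and -0.026 for Il1b. Removal of simulated doublets gave -0.088 for the interferon list, 0.59 for the inflammatory list and -0.022 for Ngp. The mean over single cells gave 0.46 for the specific granule and -0.092 for the interferon list, and the total without the most abundant genes gave 0.089 for the specific granule list. The following settings were chosen after seeing the data. Without mixed barcodes the specific granule list was at 0.42. Without granule-high cells the specific granule, interferon and inflammatory lists were at 0.34, -0.17 and 0.47. Without both they were at 0.31, -0.10 and 0.51, with Chil3 at -0.24. For Ltf these settings gave -0.70 and -0.60, but room air then held 0 UMIs and a floor of 3 counts stood in for them, so these values show no lower level in hyperoxia, where 6 UMIs were left without both. The count of genes past 2-fold went from 117 to 456 with a mean of at least 20 CPM, to 45 at a mean of at least 100 CPM and to 68 without mixed barcodes. The difference in the share of neutrophils with a UMI, -11.85 points for Isg15 and -21.22 for H2-K1, was -21.87 and -34.44 without thinning. At the deeper thinning it was -34.20 for H2-K1, and for Ccl3 it went from 4.55 to 11.30. The cause of these changes was not tested. No paired analysis was possible because each group was 1 library. With 88 neutrophils in room air, shares under a few percent and genes of few UMIs were not resolved.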

Other observations

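Several gene groups were not part of the comparisons above, and of their measured genes only Jun was past 2-fold. Of 12 measured NF-kB target and feedback genes 9 were higher in hyperoxia. Ccrl2, an atypical chemokine receptor, was at 207 CPM in room air against 363 CPM in hyperoxia, and Irg1, which makes itaconate, at 182 and 308 CPM. Ptgs2, which encodes the inducible cyclooxygenase, was at 397 and 657 CPM, while the eicosanoid genes as a group were divided, with 3 of 5 higher. Of 16 measured genes of the HIF and glycolysis list 12 were higher, among them Slc2a3, a glucose transporter, at 331 and 507 CPM. Of 15 survival and apoptosis genes 11 were higher, among them Bcl2a1d at 77.2 and 138 CPM, and Casp4, an inflammatory caspase, was lower at 102 and 51.2 CPM. Jun, an immediate early transcription factor, was at 273 and 607 CPM, with 11 of 19 genes of its list higher and 8 lower. Its log2 ratio lay between 0.27 and 1.29 under the alternatives run. Fkbp5, a glucocorticoid-responsive chaperone named here after its values were seen, was at 19.3 and 70.7 CPM.

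Genes for neutrophil attractants were also read in the other kept cells. Saa3, an acute phase protein, was at 5.04 CPM in room air against 184 CPM in hyperoxia there, and Cxcl1, a ligand of Cxcr2, at 18.4 and 34.6 CPM. Csf3, which encodes granulocyte colony-stimulating factor, was at 0.516 and 0.359 CPM.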
